A study of Mus musculus with 4 samples.

Results

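The lncRNAs described here were the single-exon transcripts of at least 400 bases that carry a NONCODE identifier (NONMMUT) and the class Linc, the authors' label for lncRNAs between genes. The table of 131850 lncRNA transcripts held 23970 of them, called members below. Of these, 8905 (37.2%) reached an average of 0.1 FPKM across both groups and were tested. FPKM scales the fragments of a transcript to its length and to all fragments of the library. A further 7954 members were above 0 in a sample but below this limit, and 7111 were listed at 0 in all 4 samples. The member just inside the limit had a mean of 0.100005 FPKM (NONMMUT083151.1) and the member just outside it had 0.0999919 FPKM (NONMMUT080092.1). The label was not borne out by position. Of the tested members, 71.4% overlapped a protein-coding gene of RefSeq, so they are named below by the rule that chose them and not as intergenic RNAs.

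C3H10T1/2, a mouse mesenchymal cell line from C3H embryos, was sequenced as 2 untreated samples (replicates 1 and 2) and 2 samples treated with 5-AZA (replicates 101 and 102). The compound, 5-azacytidine, is an analogue of cytidine and lowers DNA methylation. The treated cells received 20 μM 5-AZA for 72 hours and were then kept in fresh medium for 21 days, while the labels give the untreated samples no time in culture, so treatment and time cannot be told apart. All samples come from 1 cell line, and no engineered allele is listed. The study calls the samples of a group biological repeats without saying whether they were separate cultures, so p-values measure only the spread between these samples, which may be technical. The libraries were stranded and made from total RNA after removal of ribosomal RNA. In such bulk RNA, fewer cells of a type and less RNA per cell cannot be told apart. At the level of marker genes, 7 of 9 mesenchymal markers had a mean of at least 1 FPKM in untreated cells and 8 of 9 after 5-AZA. The summed level of the 9 was 3232 and 3292 FPKM in untreated cells and 2064 and 2312 FPKM after 5-AZA. Vim made up most of this sum, at 2268 and 2406 FPKM and then 1178 and 1380 FPKM. The markers did not move together. Thy1 was called higher, and Ly6a, Eng, Cd44 and Pdgfrb had log2 changes above 0 without a call. Vim, Col1a1 and Col1a2 had log2 changes below 0 without a call, and Nt5e was not tested. Skeletal muscle markers went from 0 of 8 to 7 of 8 at that level, and adipocyte markers from 5 of 6 to 6 of 6. The summed muscle markers were at 1.44 and 1.01 FPKM in the untreated samples and at 721 and 1117 FPKM after 5-AZA. The summed adipocyte markers were at 47.7 and 32.7 FPKM and then at 1092 and 1497 FPKM. No immune marker of 5 and no endothelial marker of 3 reached 1 FPKM in either group, and 1 epithelial marker of 3 did after 5-AZA. The part of such shifts in cell type in the results below was not tested.

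Most lncRNAs are made by RNA polymerase II, as mRNAs are, but lack a long open reading frame. A transcript with a single exon gives no splice junction, so nothing in its reads tells it from fragments of an intron, of an untranslated end or of a longer transcript on the same strand. Some named lncRNAs consist of 1 exon, such as Malat1, an abundant nuclear RNA, and Kcnq1ot1, which is made from the paternal chromosome and silences its neighbours. Others hold miRNAs, whose seed (bases 2 to 8 from the 5′ end) pairs with target mRNAs. DNA methylation in mammals sits mostly on the dinucleotide CG, and muscle differentiation factors of the MyoD family bind the E-box, CANNTG.

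No genome sequence was used, so the sequences are limited to RefSeq promoter windows (250 bases before and 50 bases after a gene's start) and mature miRNAs of GRCm38.p6, written 5′ to 3′. The first 3 promoters belong to genes with called members and the fourth to Dnm3os, whose member was not called. Only the Apol9a and Dnm3os members start in the window shown. The called members in Lincmd1 and Gm46220 start past theirs, so those windows are promoters of the genes and not known to be those of the members. Capitals mark each CG.
Lincmd1 promoter, chr1:20669632-20669931, + strand: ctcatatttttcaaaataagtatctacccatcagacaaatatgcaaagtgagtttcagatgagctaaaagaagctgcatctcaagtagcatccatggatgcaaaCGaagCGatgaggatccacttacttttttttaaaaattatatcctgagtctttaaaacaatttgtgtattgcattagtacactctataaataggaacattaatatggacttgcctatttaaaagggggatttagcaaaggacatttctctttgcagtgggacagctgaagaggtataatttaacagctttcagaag
Gm46220 promoter, chr10:38059091-38059390, + strand: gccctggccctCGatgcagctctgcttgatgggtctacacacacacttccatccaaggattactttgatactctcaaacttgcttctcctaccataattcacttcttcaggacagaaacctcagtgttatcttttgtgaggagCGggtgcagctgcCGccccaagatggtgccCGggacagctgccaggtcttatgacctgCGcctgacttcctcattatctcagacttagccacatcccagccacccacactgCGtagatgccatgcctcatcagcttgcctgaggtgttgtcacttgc
Apol9a promoter, chr15:77410985-77411284, - strand: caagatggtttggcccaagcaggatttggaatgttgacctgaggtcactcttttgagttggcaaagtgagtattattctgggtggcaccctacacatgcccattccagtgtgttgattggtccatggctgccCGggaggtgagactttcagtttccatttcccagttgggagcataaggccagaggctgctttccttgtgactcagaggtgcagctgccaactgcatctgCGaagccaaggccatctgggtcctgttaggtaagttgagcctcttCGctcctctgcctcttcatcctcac
Dnm3os promoter, chr1:162217373-162217672, + strand: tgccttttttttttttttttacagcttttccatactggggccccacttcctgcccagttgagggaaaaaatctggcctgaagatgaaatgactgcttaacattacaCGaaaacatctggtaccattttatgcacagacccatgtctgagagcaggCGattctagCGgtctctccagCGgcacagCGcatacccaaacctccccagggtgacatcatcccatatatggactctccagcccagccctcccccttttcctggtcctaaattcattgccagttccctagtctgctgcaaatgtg
The miRNAs are the main arms of those inside the Lincmd1 gene (miR-206 and miR-133b, both outside its 2 members), of 3 inside members that were not called (miR-199a and miR-214 in Dnm3os, let-7d), and miR-1892, inside the member with the lowest log2 change of those that hold a miRNA. Capitals mark the seed, and no seed was shared between them.
mmu-miR-206-3p, chr1:20679055-20679076: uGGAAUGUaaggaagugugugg
mmu-miR-133b-3p, chr1:20682834-20682855: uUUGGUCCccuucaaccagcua
mmu-miR-199a-5p, chr1:162217844-162217866: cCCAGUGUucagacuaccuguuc
mmu-miR-199a-3p, chr1:162217883-162217904: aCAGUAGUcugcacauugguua
mmu-miR-214-3p, chr1:162223438-162223459: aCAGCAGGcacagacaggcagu
mmu-let-7d-5p, chr13:48536078-48536099: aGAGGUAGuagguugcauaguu
mmu-miR-1892, chr12:54645943-54645964: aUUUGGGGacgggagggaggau

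The Lincmd1 window held 2 CG, a number that 85.9% of the 32851 RefSeq windows reached or passed. The corresponding values were 6 CG and 56.4% for Gm46220, 3 CG and 76.7% for Apol9a, and 5 CG and 62.0% for Dnm3os. CANNTG, which reads the same on both strands, occurred 2 times in the Lincmd1 window, where 39.6% of windows had as many, and 3 times in those of Gm46220 and Dnm3os, where 17.6% had as many. The Apol9a window held 6, reached by 0.67% of windows. A match is only a description of these letters. Over the whole set, 265 tested members had their first base in a promoter window on the same strand. These windows had a median of 23 CG against 7 in all windows, and 63.0% held CANNTG against 72.3% of all windows. Of these 265 members 1 was called higher, the Apol9a member, or 0.377% beside 0.984% of all lncRNAs tested.

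Levels were low for most members. Of the 8905 tested, 6074 had a mean of 0.1 to 1 FPKM, 2607 of 1 to 10, 203 of 10 to 100 and 21 of at least 100. Their median was 0.567 FPKM, beside 0.461 FPKM for all 24075 lncRNAs tested and 0.368 FPKM for the 3116 multi-exon lncRNAs of the same class. All members together summed to 32702 and 33284 FPKM in untreated replicates 1 and 2 and to 31578 and 30192 FPKM in 5-AZA replicates 101 and 102. The number at or above 1 FPKM was lower after 5-AZA, with 2642 and 2363 members against 3079 and 2966 in untreated cells. The number at or above 100 FPKM was higher, with 21 and 24 against 17 and 16. Groups did not overlap in either count, but no matching count over all lncRNAs was made. The sum over all lncRNAs was 147311 and 150156 FPKM in untreated cells and 169514 and 223173 FPKM after 5-AZA. The members made up 22.2% of it in both untreated samples and 18.6% and 13.5% after 5-AZA.

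The 8 members with the highest means held 44.6% to 48.7% of the members' summed FPKM in each sample, and 7 of them did not pass the test. The highest, NONMMUT036058.2 (chr2:22588103-22589647, minus strand, opposite Myo3a), was at 5882 and 5681 FPKM in untreated cells and 5066 and 4465 FPKM after 5-AZA. Its neighbour NONMMUT036059.2 was at 1431 and 1498 FPKM and then 1288 and 910.3 FPKM. NONMMUT077486.1 (chr1:24614885-24616251, with no coding gene within 5 kb) was at 3149 and 3168 FPKM and then 2916 and 2547 FPKM. In all 3 the untreated samples lay above the 5-AZA samples, with log2 changes of -0.28, -0.44 and -0.21 and limma adjusted p-values of 0.576, 0.510 and 0.623. NONMMUT029642.2 (chr17:39843013-39846341, no coding gene within 5 kb) was at 1215 and 827 FPKM in untreated cells and 764 and 1081.5 FPKM after 5-AZA, so its groups overlapped. Only FPKM values were used, so whether reads from other places in the genome count in these high members was not tested.

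Among the other high members, NONMMUT056388.2 (chr6:36714929-36715534) ended 5 bases before the 3′ end of Ptn, on the same strand. Ptn encodes pleiotrophin, a secreted growth factor. The member was at 2626 and 3736 FPKM in untreated cells and 2041 and 1548 FPKM after 5-AZA, and the Ptn mRNA at 3018 and 3375 FPKM and then 2204 and 2618 FPKM. Both were lower after 5-AZA without overlap, but neither passed (adjusted p = 0.349 and 0.0663, limma). NONMMUT044785.2 overlapped Scarna2, a small RNA of the Cajal body, at 633, 621, 640 and 953 FPKM in untreated 1 and 2 and 5-AZA 101 and 102. It was higher after 5-AZA without overlap but did not pass (log2 change 0.32, limma adjusted p = 0.615). NONMMUT011559.2, opposite Spag9, was at 683, 682, 588 and 675 FPKM in the same order, lower without overlap but not past the test (log2 change -0.12, limma adjusted p = 0.78). The eighth, NONMMUT053314.2, rose after 5-AZA and is described below.

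After 5-AZA, 53 members were called higher and 8 lower, where a call is a limma adjusted p below 0.05 over all lncRNAs tested and a change over 2-fold. The 53 are 0.595% of the tested members, beside a background of 0.984% of all lncRNAs tested, and 1.89% of multi-exon lncRNAs of the class. The 8 are 0.0898%, beside 0.154% of all lncRNAs and 0.193% of multi-exon lncRNAs. The log2 changes of the called members were 1.99 to 7.87 upward and 4.09 to 7.98 downward, and all 61 had groups that did not overlap. The median log2 change of the tested members was -0.28 (quartiles -0.65 and 0.13), beside -0.23 for all lncRNAs and -0.12 for multi-exon ones, and 69.0% of the members were below 0. Without adjustment, 299 were higher and 480 lower at p below 0.05 and over 2-fold (3.36% and 5.39%, beside 4.93% and 5.5% of all lncRNAs). This split depends on the scaling, with 371 higher and 283 lower after median centring, which moved the median of all lncRNAs up by 0.17 and left that of the members at -0.11. On the FPKM as deposited, both 5-AZA samples lay above both untreated samples for 1087 members (12.2%, beside 14.6% of all lncRNAs) and below them for 3387 (38.0%, beside 31.7%).

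These calls rest on all 4 samples together. Leaving out any 1 of them (untreated 1 or 2, 5-AZA 101 or 102) leaves 1 sample in a group, so only log2 changes are given for those runs. All 61 called members stayed over 2-fold in their direction each time. They were chosen for large changes in the same 4 samples, so this is no independent check of the calls. With 2 samples against 2 the smallest two-sided exact permutation p of a single member is 0.333. Where one group is near 0, the log2 change is set largely by the pseudocount of 0.1 FPKM. The pseudocount then also narrows the spread within that group, which enters the limma p-value.

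**Figure D1:**
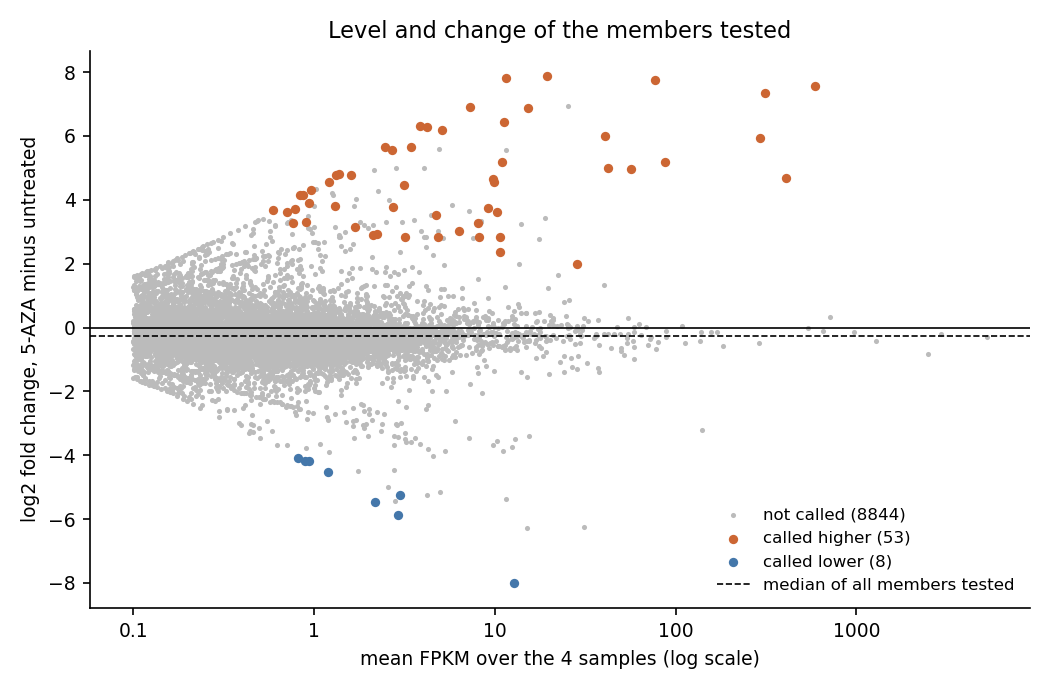
Each point is 1 of the 8905 members tested, with its mean FPKM over the 4 samples on a log axis against its log2 fold change (5-AZA minus untreated, pseudocount 0.1 FPKM). The dashed line is their median of -0.28, the 53 members called higher reach up to 7.87 and the 8 called lower lie between -4.09 and -7.98, and low members fan out to a limit set by the pseudocount.

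The members described next were low in untreated cells and rose. NONMMUT053314.2 (chr5:100746858-100747703, minus strand) overlapped the lncRNA gene Gm36619 and was at 6.39 and 5.82 FPKM in untreated cells and at 1080.3 and 1278 FPKM after 5-AZA. Its log2 change of 7.57 (SE 0.18) had an adjusted p of 0.00462. It was the only member called among the 8 highest.

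Several further risers overlapped no RefSeq gene and had no coding gene within 5 kb. NONMMUT005102.2 (chr10:26927243-26929223, minus strand) was at 0.815 and 0.446 FPKM and then 134 and 172 FPKM, a log2 change of 7.75 (SE 0.33, adjusted p = 0.00591). NONMMUT049520.2 (chr4:127008744-127009390, plus strand) was at 2.50 and 5.41 FPKM and then 573 and 672 FPKM, a log2 change of 7.36 (SE 0.41, adjusted p = 0.00917). NONMMUT082512.1 (chr10:99098231-99099565, minus strand) was at 0.347 and 0.0479 FPKM and then 20.9 and 23.5 FPKM, a log2 change of 6.44 (SE 0.59, adjusted p = 0.0307). In each the 2 samples of a group lay close together next to the gap between groups. The nearest coding genes changed far less. Arhgap18, a GTPase-activating protein 8595 bases from NONMMUT005102.2, had a log2 change of 0.68 (adjusted p = 0.0397), Sfpq, a splicing factor 11326 bases from NONMMUT049520.2, had -0.24 (adjusted p = 0.176) and Poc1b, a centriole protein 7517 bases from NONMMUT082512.1, had 0.29 (adjusted p = 0.383). NONMMUT005640.2 (chr10:55719234-55720836), chosen for the text after its values were seen, was at 9.07 and 9.24 FPKM and then 502 and 645 FPKM (log2 change 5.94, adjusted p = 0.00462).

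Others lay in or across coding genes. NONMMUT053565.2 (chr5:107106572-107107165) lay in Tgfbr3, the TGF-beta coreceptor betaglycan, whose strand is not given in the tables used. It was at 1.80e-06 and 0.166 FPKM in untreated cells and 32.3 and 45.1 FPKM after 5-AZA (log2 change 7.87, SE 0.55, adjusted p = 0.0159). With a pseudocount of 1 FPKM in place of 0.1 FPKM the log2 change was 5.18. The Tgfbr3 mRNA was at 6.02 and 5.43 FPKM and then 11.8 and 12.3 FPKM, a log2 change of 1.06 (adjusted p = 5.45e-04). NONMMUT013215.2 (chr12:3247542-3249336) ended 114 bases inside the 3′ end of Rab10, a small GTPase of vesicle transport, on the same strand. It was listed at 0 in both untreated samples and was at 17.3 and 28.8 FPKM after 5-AZA (adjusted p = 0.00619), while the Rab10 mRNA had a log2 change of -0.10 (adjusted p = 0.504).

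On the strand opposite to their gene, NONMMUT052038.2 (chr5:38134394-38136097, opposite Stx18) was at 0.0362 and 1.24e-23 FPKM and then 10.3 and 18.7 FPKM (log2 change 6.90, adjusted p = 0.0103). NONMMUT077900.1 belongs to the qPCR set of the study. It lay opposite Pard3b, a cell polarity gene (chr1:62534491-62535942), and was at 28.7 and 31.4 FPKM and then 686 and 878 FPKM (log2 change 4.69, SE 0.20, adjusted p = 0.00588). The mRNAs on the other strand had log2 changes of 0.18 for Stx18 and 0.10 for Pard3b (adjusted p = 0.465 and 0.753). NONMMUT086539.1 (chr12:24691938-24692840) overlapped the lncRNA gene Gm36129 and was at 0.285 and 0.0625 FPKM and then 22.3 and 38.8 FPKM (log2 change 6.88, adjusted p = 0.0224). Of all 53 risers, 20 were below 0.1 FPKM in both untreated samples, 4 of them listed at 0 there. These 20 reached the level limit only through their 5-AZA samples. After 5-AZA 26 of the 53 had a mean of at least 10 FPKM and 7 of at least 100 FPKM.

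**Figure D2:**
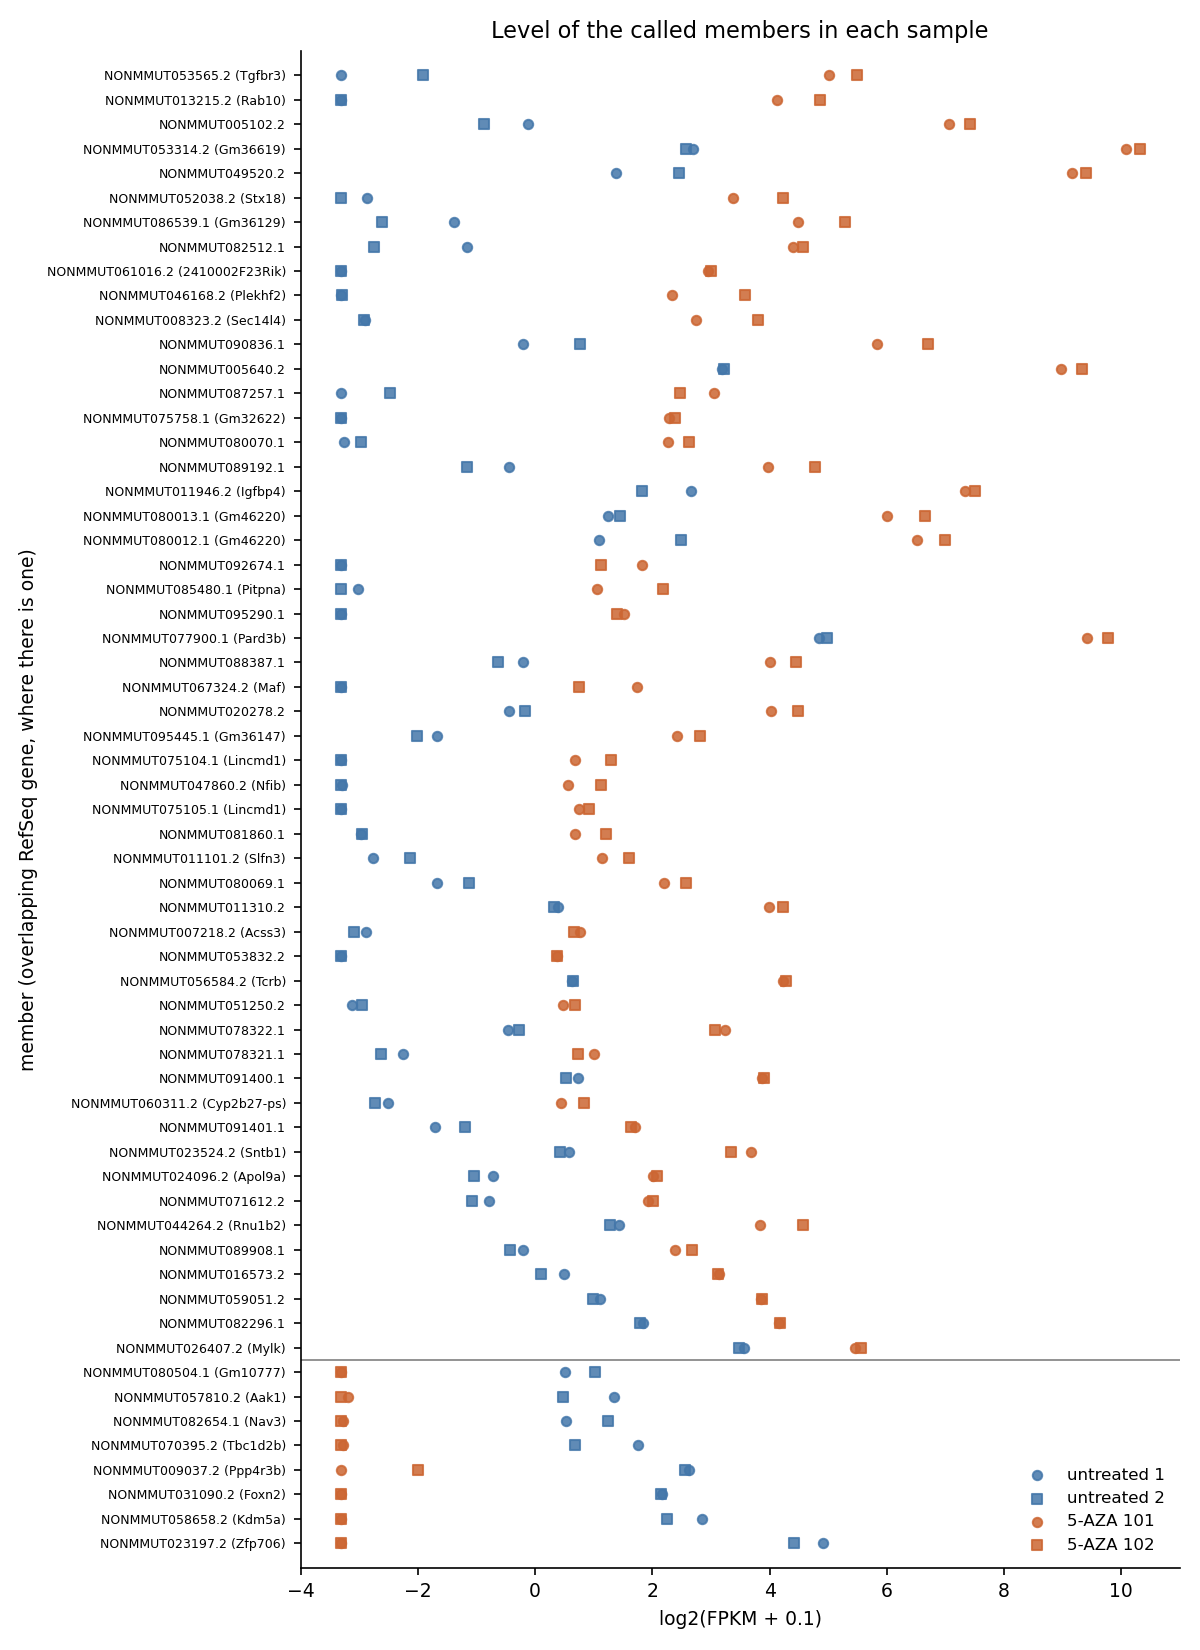
Level of the 53 members called higher (above the line) and the 8 called lower (below it) in each sample, on a log2(FPKM + 0.1) axis, with the overlapping RefSeq gene in parentheses where there is one. Blue marks untreated and orange 5-AZA samples, the 2 groups overlap in none of the 61, and 7 of the 8 members called lower sit at the left limit in both 5-AZA samples.

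The 8 members that fell were, with 1 exception, in coding genes, and 7 were below 0.1 FPKM in both 5-AZA samples. These 7 reached the level limit only through their untreated samples. NONMMUT023197.2 (chr15:36999252-37000783, minus strand) lay in Zfp706, a zinc finger gene, and went from 30.0 and 21.2 FPKM in untreated cells to 1.48e-05 and 3.02e-09 FPKM after 5-AZA (log2 change -7.98, SE 0.29, adjusted p = 0.00482). The Zfp706 mRNA rose over the same samples, from 14.1 and 15.0 FPKM to 27.4 and 28.3 FPKM (log2 change 0.94, adjusted p = 3.10e-04), although under 2-fold. NONMMUT058658.2 in Kdm5a, a histone demethylase, went from 7.08 and 4.63 FPKM to 5.10e-04 and 1.52e-04 FPKM (log2 change -5.86, adjusted p = 0.0103), and NONMMUT031090.2 in Foxn2, a forkhead factor, from 4.38 and 4.31 FPKM to 1.39e-08 and 2.36e-09 FPKM (log2 change -5.47, adjusted p = 0.00853). The mRNAs of these genes had log2 changes of -0.11 and -0.07 (adjusted p = 0.531 and 0.796).

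In 3 fallers the member ended at the 3′ end of its gene. NONMMUT009037.2 stopped 23 bases before the end of Ppp4r3b, a phosphatase subunit, and went from 6.05 and 5.77 FPKM to 7.64e-04 and 0.149 FPKM (adjusted p = 0.0371). NONMMUT070395.2 stopped 16 bases before the end of Tbc1d2b, a regulator of Rab proteins, and went from 3.29 and 1.495 FPKM to 0.00268 and 7.90e-08 FPKM (adjusted p = 0.0474), while the Tbc1d2b mRNA had a log2 change of 0.63 (adjusted p = 0.00660). NONMMUT057810.2 stopped 6 bases before the end of Aak1, an endocytic kinase, and went from 2.45 and 1.29 FPKM to 0.00928 and 6.84e-08 FPKM (adjusted p = 0.0468), with the Aak1 mRNA at -0.01 (adjusted p = 0.967). NONMMUT082654.1 in Nav3 went from 1.33 and 2.26 FPKM to 0.00304 and 4.27e-17 FPKM (adjusted p = 0.0379), and the Nav3 mRNA was also lower, with a log2 change of -0.997 (adjusted p = 0.00402). NONMMUT080504.1, over the lncRNA gene Gm10777, went from 1.32 and 1.94 FPKM to 8.17e-09 and 1.32e-19 FPKM (adjusted p = 0.0329). Values this close to 0 stand for no level that could be measured. Where a member and an mRNA overlap on 1 strand, their reads cannot be told apart by position, and the levels of both are uncertain.

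The other members of the qPCR set all lay in coding genes on the same strand. NONMMUT026407.2 (chr16:35001273-35002419) stopped 17 bases before the 3′ end of Mylk, the myosin light chain kinase, and rose from 11.7 and 11.1 FPKM to 43.9 and 47.4 FPKM (log2 change 1.99, SE 0.17, adjusted p = 0.0257). The Mylk mRNA rose from 3.33 and 1.48 FPKM to 11.2 and 10.9 FPKM (log2 change 2.26, adjusted p = 9.00e-04). NONMMUT033845.2 in Ahnak, a large scaffold protein, was at 233 and 266 FPKM and then 16.4 and 43.2 FPKM, with no overlap but without passing the test (log2 change -3.22, adjusted p = 0.121). NONMMUT014226.2 at the end of Sptssa, a subunit of serine palmitoyltransferase, was at 61.8 and 58.7 FPKM and then 3.48 and 0.0735 FPKM (adjusted p = 0.251), and NONMMUT003617.2 in Mpzl1, a membrane protein, at 33.0 and 26.0 FPKM and then 3.15e-05 and 1.35 FPKM (adjusted p = 0.210). In all 3 the 5-AZA samples lay below the untreated ones but far from each other on the log scale.

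Each member was placed against RefSeq genes. The coordinates match GRCm38, because 63.9% of the lncRNAs taken from RefSeq have exactly the start and end of a GRCm38.p6 gene, although the submitters' processing notes name mm9. Only the spans of genes were given, so exons and introns were not told apart. Of the tested members, 4451 (49.98%) lay inside a coding gene on the same strand, in 2293 genes, against 21.5% of the members below the level limit and 22.0% of tested multi-exon lncRNAs of the class. For every tested member opposite a coding gene there were 10.9 on its strand, against 3.89 below the limit. A further 406 (4.56%) reached the 3′ end of a coding gene on its strand, and 80.1% of all members of this kind ended within 50 bases of it. Opposite a coding gene lay 445 (5.00%), 1058 (11.9%) overlapped a coding gene whose strand is not given, and 706 (7.93%) overlapped another kind of gene. Of those that overlapped no gene, 261 lay within 5 kb past a coding gene's 3′ end on its strand, and 264 lay within 5 kb of a coding gene otherwise. Another 1303 (14.6%) overlapped no gene and had no coding gene within 5 kb. Non-coding genes at that distance were not looked for. The remaining 11 were on the mitochondrial genome or on sequences without a gene list.

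Calls were spread differently from members. Of the 4451 members inside a coding gene on its strand, 2 were called higher (0.0449%) and 0 lower by limma, beside the background of 0.984% and 0.154%, with 72 higher and 236 lower over 2-fold at an unadjusted p below 0.05. Of the 1303 with no coding gene within 5 kb, 24 were called higher (1.84%) and 0 lower, with 107 and 82 before adjustment. Of the 706 over another kind of gene, 11 (1.56%) were called higher and 1 lower (0.142%). The 3′ end members gave 4 higher (0.985%) and 3 lower (0.739%). Members opposite a coding gene gave 3 higher (0.674%) and 0 lower, with 11 and 18 before adjustment. Those with no strand given gave 7 higher (0.662%) and 4 lower (0.378%). Median levels came in another order. The median was 0.654 FPKM inside genes on the same strand and 0.973 FPKM at 3′ ends. It was 0.324 FPKM with no coding gene within 5 kb and 0.330 FPKM on the opposite strand. The share of members that passed the level limit was 57.8% inside genes on the same strand and 19.9% with no coding gene within 5 kb.

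**Figure D3:**
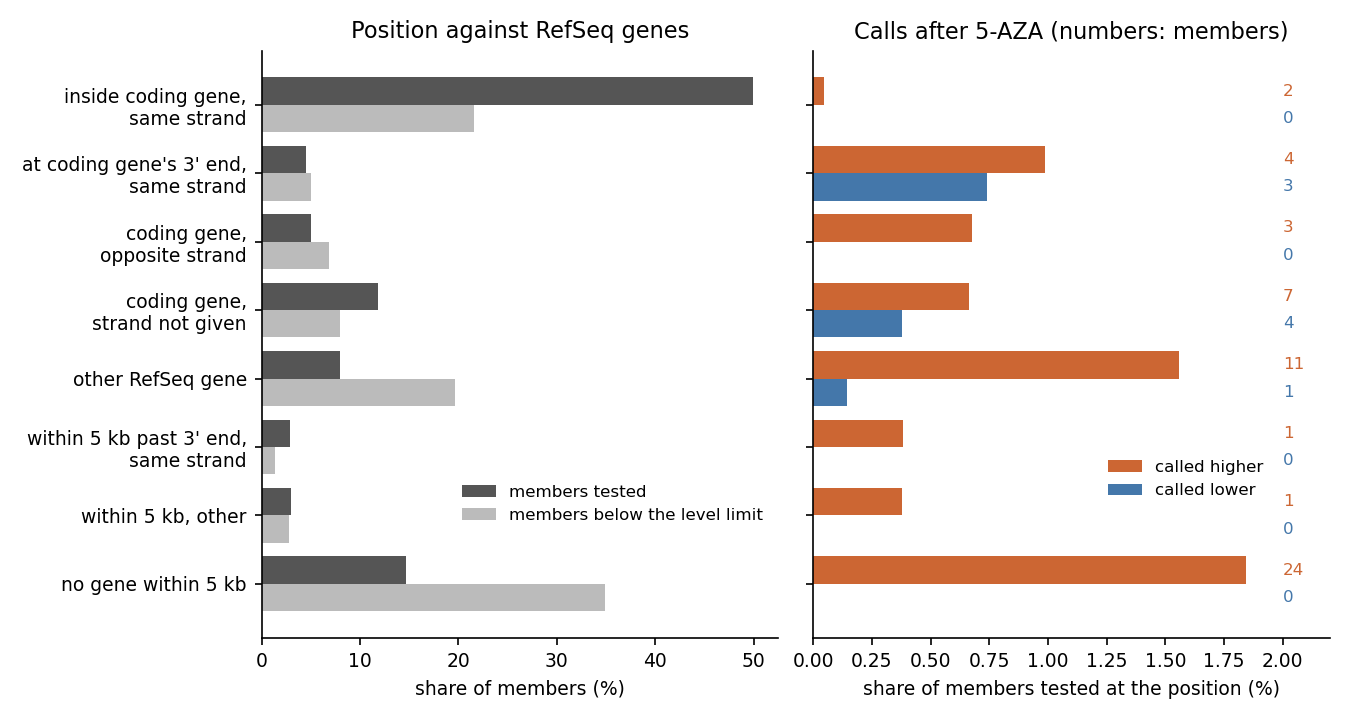
Left, the share of tested members and of members below the level limit at each position against RefSeq genes. Right, the share called higher or lower among the members tested at that position, with the number of members printed beside it. The class marked as no gene within 5 kb overlapped no gene and had no coding gene within 5 kb. Members inside coding genes on the same strand are 49.98% of those tested and gave 2 calls. The 14.6% with no coding gene within 5 kb gave 24, all higher.

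Members inside a coding gene on its strand were set beside the gene's own change. The comparisons of members and of mRNAs use the same 4 libraries, and reads of the 2 cannot be told apart where they overlap on 1 strand. The mRNA comparison called 13.1% of 13199 genes higher and 1.32% lower. In 86 genes called higher, with a median log2 change of 1.65, the 170 members had a median of 0.70 (quartiles 0.11 and 1.30), and 96 of them were higher without overlap and 10 lower. In 24 genes called lower, with a median of -1.15, the 50 members had a median of -0.97, and 38 were lower without overlap and 1 higher. In 2046 genes that were not called, with a median of -0.04, the 4021 members had a median of -0.33, and 1828 were lower without overlap and 300 higher. The 15 members opposite to 14 genes called higher had a median of -0.49, where the genes had 2.05, and 9 were lower without overlap and 0 higher. The background for groups without overlap is 14.6% higher and 31.7% lower. Under a pseudocount of 1 FPKM the median of 0.70 fell to 0.20, and it stayed above 0 under each alternative run.

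**Figure D4:**
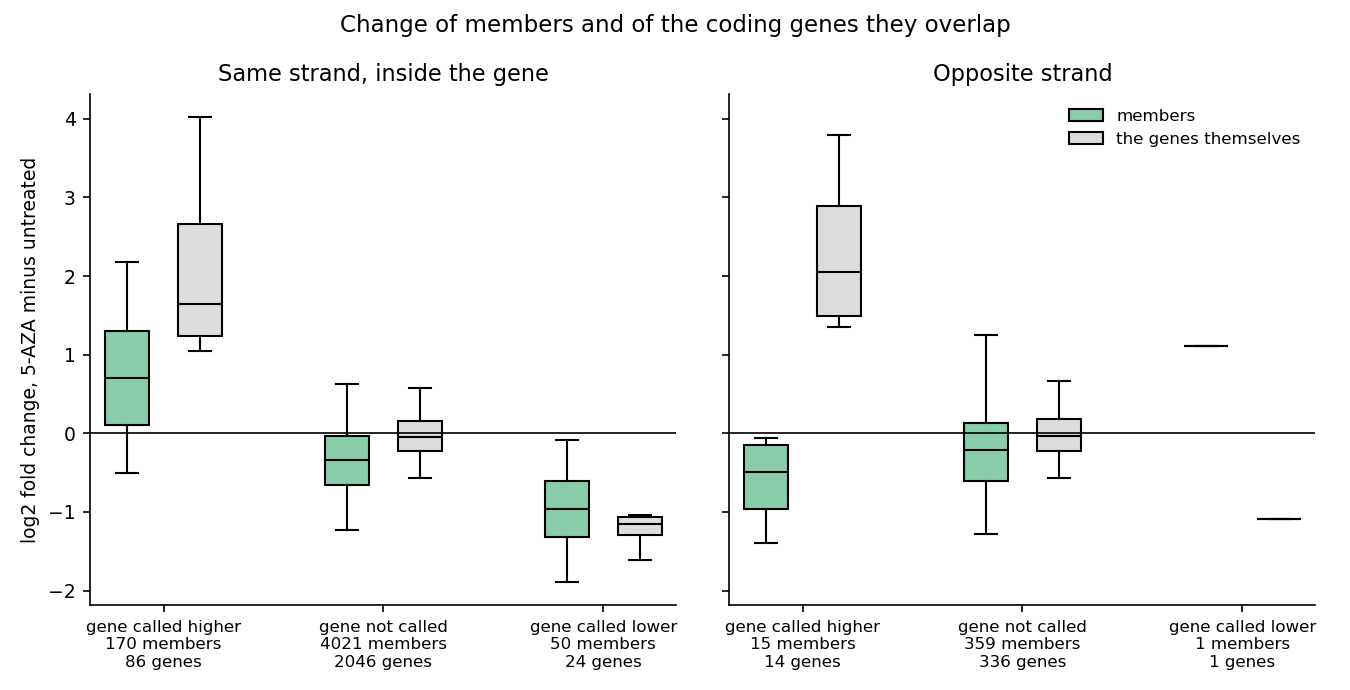
Log2 fold change of members (green) and of the coding genes they overlap (grey), for members inside the gene on its strand (left) and on the opposite strand (right), by the call of the gene. Boxes span the quartiles with the median as a line, whiskers reach from the 5th to the 95th percentile, and the group opposite a gene called lower holds 1 member. Same-strand members had medians of 0.70, -0.33 and -0.97 in genes called higher, not called and called lower, and members opposite genes called higher had a median of -0.49.

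Single genes showed how members and mRNA stood together or apart. NONMMUT011946.2 (chr11:99051575-99052641) stopped 14 bases before the 3′ end of Igfbp4, which encodes a binding protein of insulin-like growth factors. The member was at 6.19 and 3.45 FPKM and then 161 and 181 FPKM (log2 change 5.17, adjusted p = 0.0118), and the mRNA at 3.28 and 2.27 FPKM and then 182 and 322 FPKM (log2 change 6.42, adjusted p = 9.09e-07). NONMMUT024096.2 in Apol9a, an interferon-inducible apolipoprotein L gene, was at 0.504 and 0.386 FPKM and then 3.91 and 4.13 FPKM (log2 change 2.93, adjusted p = 0.0291), with 2.80 for the mRNA. NONMMUT023524.2 in Sntb1, a syntrophin of the dystrophin complex, was at 1.40 and 1.24 FPKM and then 12.8 and 10.007 FPKM (log2 change 3.01, adjusted p = 0.0220), with 2.75 for the mRNA. In these 3 genes both were higher after 5-AZA without overlap.

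In the next genes the member was called higher and the mRNA was not. NONMMUT061016.2 at the 3′ end of 2410002F23Rik was at 8.86e-08 and 2.06e-04 FPKM and then 7.59 and 7.93 FPKM (adjusted p = 0.00591), with an mRNA log2 change of -0.0014 (adjusted p = 0.996). NONMMUT046168.2 in Plekhf2 was at 9.38e-17 and 0.00228 FPKM and then 4.97 and 11.8 FPKM (adjusted p = 0.0224), with 0.08 for the mRNA (adjusted p = 0.721). NONMMUT067324.2 in Maf, a leucine zipper transcription factor, was listed at 0 in untreated cells and at 3.25 and 1.57 FPKM after 5-AZA (adjusted p = 0.0417), while the Maf mRNA was at 3.30 and 2.84 FPKM and then 1.62 in both (log2 change -0.88, adjusted p = 0.0130). These genes were chosen for the text after their values were seen.

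Some genes held many members, which share a host and are not independent. Samd5 held 56 tested members with a median log2 change of -0.25, beside -0.26 for its mRNA (adjusted p = 0.262). Adgrl3, an adhesion receptor, and Pde4d, a phosphodiesterase of cyclic AMP, held 23 each. The members of Adgrl3 had a median of -0.32 beside -0.20 for the mRNA. Those of Pde4d had a median of -0.38, with a range from -1.19 to 0.85, although the Pde4d mRNA was at 3.90 and 3.81 FPKM in untreated cells and 8.31 and 8.32 FPKM after 5-AZA (log2 change 1.09, adjusted p = 7.34e-04). The 16 members in Unc5c, a netrin receptor, all lay below 0, from -2.72 to -0.71, with a median of -0.93 beside -0.71 for the mRNA (adjusted p = 0.00538). Foxp1 and Kcnip4 held 20 members each, with medians of -0.29 and -0.44.

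The 23970 members formed 14401 runs with gaps of at most 10000 bases, and 6508 runs held a tested member. In 6 runs 2 members were called, all of them higher. The Lincmd1 locus on chromosome 1 held 2 of these. Lincmd1 is a muscle lncRNA that is made during differentiation of myoblasts. NONMMUT075104.1 (chr1:20671305-20671950) was listed at 0 in both untreated samples and at 1.498 and 2.36 FPKM after 5-AZA (adjusted p = 0.0306). NONMMUT075105.1 (chr1:20672082-20673564), on the same strand, was also listed at 0 in both and at 1.58 and 1.78 FPKM after 5-AZA (adjusted p = 0.0240). The summed skeletal muscle markers moved the same way in the same samples, and their part in this result was not tested.

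In the lncRNA gene Gm46220, on chromosome 10, NONMMUT080012.1 (chr10:38059649-38060719) was at 2.03 and 5.50 FPKM and then 91.8 and 127 FPKM, and NONMMUT080013.1 (chr10:38060834-38063361) at 2.26 and 2.62 FPKM and then 63.9 and 101 FPKM. Their log2 changes were 4.97 and 4.99 (adjusted p = 0.0453 and 0.0101). The 2 members at chr10:42283146-42286567, 6451 bases from the forkhead factor gene Foxo3, had log2 changes of 3.79 and 5.57 (adjusted p = 0.0273 and 0.01001), beside 0.28 for the Foxo3 mRNA (adjusted p = 0.194). At chr14:32115643-32118942, 12440 bases from Oxnad1, NONMMUT020278.2 was at 0.636 and 0.788 FPKM and then 16.1 and 22.2 FPKM, and NONMMUT092674.1 at 7.47e-29 and 2.35e-23 FPKM and then 3.43 and 2.09 FPKM. Both passed (adjusted p = 0.0103 and 0.0234).

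At chr1:101892958-101899127 no coding gene lay within 1402360 bases, and NONMMUT078322.1 went from 0.627 and 0.726 FPKM to 9.34 and 8.28 FPKM (log2 change 3.52, adjusted p = 0.0130), with 3.31 for its neighbour NONMMUT078321.1 (adjusted p = 0.0422). The last locus, near Cks2 on chromosome 13, held 4 tested members. NONMMUT091400.1 went from 1.55 and 1.34 FPKM to 14.5 and 14.9 FPKM (log2 change 3.26, adjusted p = 0.0114), and NONMMUT091401.1 on the same strand had 3.13 (adjusted p = 0.0371). The other two had log2 changes of -0.24 and -0.34 (adjusted p = 0.906 and 0.638), and NONMMUT017503.2, which overlaps Cks2, is on the other strand. Neighbours within such a run may be parts of 1 transcript, since none has a splice junction.

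The run with the most tested members lay at chr10:9149348-9232277, beyond the 3′ end of Samd5 and at least 30184 bases from it. It held 35 members, all 32 tested ones on the minus strand, over 82930 bases. Their means were between 0.102 and 1.44 FPKM, and their sum was 10.6 and 8.70 FPKM in untreated cells and 7.36 and 7.80 FPKM after 5-AZA. The highest, NONMMUT081424.1, was at 1.92, 1.5003, 0.691 and 1.67 FPKM in untreated 1 and 2 and 5-AZA 101 and 102, and its groups overlapped. Of the 32, 25 had a log2 change below 0, with a median of -0.34, and 0 were called by limma, with 0 higher and 1 lower over 2-fold before adjustment. Samd5 itself, on the same strand, was at 7.85 and 7.35 FPKM and then 5.81 and 6.90 FPKM. Of the 6 highest members of the run, 4 changed sign when a sample was left out, 1 of them also under another scaling, so no direction is given for them.

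Length went with the share of members that could be tested. Of members under 1000 bases 24.8% passed the level limit, rising to 35.9% from 1000 bases, 46.1% from 2000 bases and 51.3% from 3000 bases. The share called higher among those tested went the other way, with 17 of 1668 (1.02%), 22 of 3128 (0.703%), 9 of 2350 (0.383%) and 5 of 1759 (0.284%). The members called lower were 3, 4, 1 and 0 in the same order. The median length was 1388 bases for members called higher, 1361.5 bases for those called lower and 1860.5 bases for the others. Length and position against genes were not separated here.

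**Figure D5:**
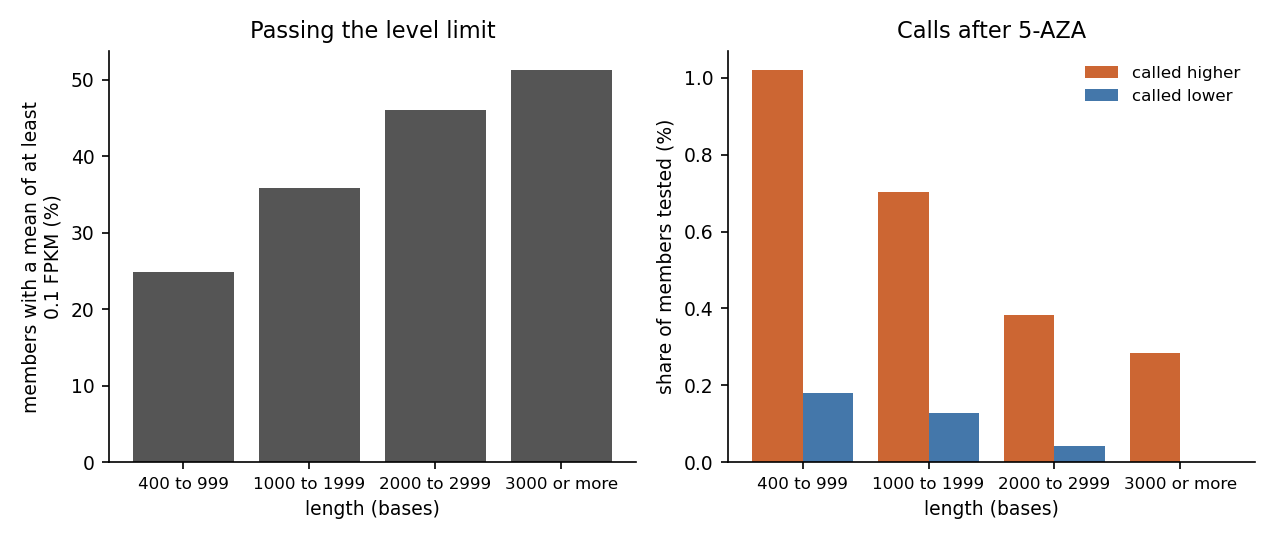
Left, the share of members of each length class with a mean of at least 0.1 FPKM. Right, the share of the tested members in each class called higher or lower after 5-AZA. The first rises from 24.8% to 51.3% with length, and the share called higher goes from 1.02% to 0.284%.

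The longest member, NONMMUT064303.2, was a single exon of 84395 bases (chr7:143212155-143296549, minus strand) over Kcnq1ot1 and Kcnq1. It was at 3.69 and 3.71 FPKM in untreated cells and 2.95 and 2.36 FPKM after 5-AZA, lower without overlap but not past the test (log2 change -0.47, SE 0.23, adjusted p = 0.479). The next longest, NONMMUT096489.1 over B430209F14Rik (15933 bases) and NONMMUT092223.1 (13342 bases), were under the level limit, with highest values of 0.112 and 0.126 FPKM, both in 5-AZA replicate 102.

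Members also lay in lncRNA genes that have a name. Of the tested members 872 overlapped a RefSeq lncRNA gene, and 41 had exactly the start and end of a RefSeq gene, 29 of them lncRNA genes. In a list of 38 known lncRNA genes, 25 had 57 tested members that overlapped their spans on either strand. Of these, the 2 in Lincmd1 were called higher (3.51%, beside 0.984% of all lncRNAs tested). A log2 change below 0 was found for 39 of the 57 (68.4%), beside 69.0% of all tested members. The list was chosen after some of these values were known. Malat1 (NONMMUT033600.2) was at 168, 98.8, 97.6 and 85.2 FPKM in untreated 1 and 2 and 5-AZA 101 and 102, with untreated 1 apart from the other three (log2 change -0.50, adjusted p = 0.564). Dnm3os, which carries miR-199a and miR-214, was at 8.89, 8.09, 8.08 and 8.14 FPKM in the same order (log2 change -0.06, SE 0.18, adjusted p = 0.902). The 5 members in Mir100hg had log2 changes between -0.06 and 0.35, with means of up to 30.2 FPKM.

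Imprinted lncRNA genes, which are made from 1 parental chromosome, gave no calls in limma. Among the genes given here 1 member (in H19) was over 2-fold at an unadjusted p below 0.05. The share called over all lncRNAs tested was 0.984% higher and 0.154% lower, so with this few members an absence of calls says little. The member in H19, an abundant RNA of embryonic tissues that also holds miR-675, was at 9.72e-07 and 2.89e-07 FPKM in untreated cells and 0.477 and 0.230 FPKM after 5-AZA (adjusted p = 0.296). The 6 members in Airn, which silences Igf2r on the paternal chromosome, had means of 2.38 to 2.69 FPKM and log2 changes between -0.66 and -0.09. The 4 in Rian had log2 changes between -0.60 and 0.10, and the 1 each in Meg3, Mirg and Peg13 had -0.98, -1.31 and 0.17. The 7 that overlapped the span of Snhg14 had log2 changes between -0.71 and 0.24. Most of these 7 lay in Ube3a on its strand, such as NONMMUT061428.2, which stopped 3 bases before the 3′ end of Ube3a. Overlap was taken on either strand, so these values are not a level of Snhg14 itself.

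Inside tested members lay 22 miRNA genes, 19 of them on the strand of the member. By limma 0 of the 20 members were called, beside 0.984% higher and 0.154% lower of all lncRNAs tested. In each direction 1 was past an unadjusted p of 0.05 and over 2-fold, beside 4.93% higher and 5.5% lower of all lncRNAs. So few members cannot show a difference from these shares. The let-7d member, NONMMUT017386.2, was at 10.8 and 10.5 FPKM and then 12.6 and 11.8 FPKM, higher without overlap (log2 change 0.19, adjusted p = 0.641). The miR-1892 member is NONMMUT014226.2 at the end of Sptssa, described above with the qPCR set. The miR-705 member in Rab11fip5, NONMMUT057695.2, was at 6.46 FPKM in untreated 1 and 0.132 FPKM in untreated 2, and at 5.57 and 6.06 FPKM after 5-AZA, so that 1 sample stood apart from 3. These values describe the long transcripts and not the mature miRNAs.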

How the data were processed

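RNA of 2 untreated and 2 5-AZA samples of C3H10T1/2 was analysed. The authors deposited FPKM values per lncRNA transcript, with its position, class, number of exons and length, and FPKM values per mRNA transcript. They trimmed the reads with Trimmomatic and tested with a package for counts. The submitters' processing notes also name HISAT2, Bowtie2 2.2.9, eXpress 1.5.1 and the build mm9, with no roles. FPKM is not a count, and whole reads could not be recovered from it, so the depth of each sample is unknown and no interval for counting error is given.

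The members and lists were chosen with earlier results of these data known, and the list of 38 known lncRNA genes after some of their values were seen. The log2 of FPKM plus a pseudocount of 0.1 went into limma 3.58.1 (lmFit, eBayes with trend) in R 4.3.3, for all 24075 lncRNAs averaging at least 0.1 FPKM, with both groups in the fit and no covariate. p-values were adjusted over all of them by Benjamini and Hochberg's method. The thresholds, an adjusted p below 0.05 and a change over 2-fold, are those the study states. mRNA transcripts were summed per gene and fitted in the same way. Simulated data held 200 changed lncRNAs in each of 10 draws over 24075 lncRNAs. The fit found 45.5% of log2 rises of 4 and 73.2% of rises of 8, and 5.27% of its calls were false. The noise was normal and independent between lncRNAs, with each spread taken from the same 4 samples. All changes were rises, and no shift between samples was put in. These shares hold for that setting and are not error rates of the calls given here.

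Genes, their types and spans came from the RefSeq annotation of GRCm38.p6, and promoter windows, strands and miRNAs from RefSeq tables of the same build. Of 598 lncRNAs taken from RefSeq 382, and of 10045 taken from GENCODE 992, have exactly the span of a gene in that build after 1 is added to the listed start. A member was put at a 3′ end where it reached past that end or stopped within 50 bases of it. Members named in the text are the 8 with the highest means, the 8 with the largest log2 changes called in each direction with groups apart and at least 1 FPKM in the higher group, the 3 longest, those in the study's qPCR set, and the 6 highest of the run with the most tested members. All others were named after their values were seen.

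Other pseudocounts, limits on low values and length, scalings, eBayes without trend, 1 member per set of overlapping members, and the omission of each sample were tried as alternatives. Those for members inside genes by the gene's call, and the count of members with no coding gene within 5 kb, were added after the data were seen. The circRNA values, the qPCR and the staining were not used here.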

Additional observations from a re-analysis of the deposited data

How the results depend on the processing

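The number of samples and the unknown depth limit every result. No paired analysis was possible because the untreated and 5-AZA samples share no replicate number. The 53 members called higher became 44 with a pseudocount of 1 FPKM and 38 with 0.01 FPKM, of which 38 and 38 were among the 53. They became 42 with a limit of 1 FPKM, 58 after median centring, 57 after quantile normalization, 36 from a length of 1000 bases and 53 with overlapping members counted once. Outside 1.5 times the count lay eBayes without trend (29), no limit on low values (0) and members with no coding gene within 5 kb (24). Calls are not counted for the omission of a sample, which leaves 1 sample in a group. The 8 called lower became 5 and 3 with the other pseudocounts, 7 with a limit of 1 FPKM, 16 after quantile normalization and 4 without trend. They became 5 from 1000 bases, 0 without a limit and 0 with no coding gene within 5 kb. With no limit on low values limma left 280 higher and 399 lower before adjustment, and the cause was not tested. The unadjusted split of 38.4% higher became 56.7% after median centring, 51.8% after quantile normalization and 59.5% with a pseudocount of 1 FPKM. These scalings moved the median of all lncRNAs up by 0.17 and 0.12. The median log2 change of -0.28 became -0.11 and -0.34 with pseudocounts of 1 and 0.01 FPKM, and -0.0198 without a limit. It became -0.11 after median centring, -0.15 after quantile normalization and -0.19 with no coding gene within 5 kb. It lay between -0.35 and -0.22 when 1 sample was left out. The sign of a log2 change reversed for NONMMUT011559.2 (0.0487) and NONMMUT029642.2 (0.0238) after median centring, for NONMMUT044785.2 (-0.64) after quantile normalization and for NONMMUT081423.1 (0.0389 and 0.0519) under both. When 1 sample was left out it went from -0.42 to 0.14 for NONMMUT029642.2, -0.34 to 0.0830 for NONMMUT081423.1, -1.497 to 0.47 for NONMMUT081426.1, -1.66 to 0.11 for NONMMUT081437.1 and -0.17 to 1.07 for NONMMUT081438.1, none of them called. For the 35 members named by the rule and tested, 254 values kept their direction and side of the threshold, 110 lost the threshold only and 13 reversed. These values include the runs with 1 sample left out, where the loss of the threshold says little.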

Other observations

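The members came from several collections that NONCODE had merged. The collection labelled noncodeV3 gave 10673 members, of which 5814 (54.5%) passed the level limit, and 17 of those were called higher (0.292%) and 6 lower. The label NONCODEv3 stood on another 2010 members, of which 624 (31.0%) passed, with 7 called higher (1.12%). A single published catalogue gave 8820, of which 1707 (19.4%) passed, with 22 called higher (1.29%) and 2 lower. GENCODE gave 1070, of which 490 (45.8%) passed, with 3 called higher (0.612%). Of all lncRNAs tested, 0.984% were called higher. Differences between collections were not tested.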
